A study of Rattus norvegicus with 125 samples.

Results

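The 7 genes described here encode enzymes of cholesterol synthesis: Hmgcs1, Idi1, Fdps, Fdft1, Sqle, Lss and Dhcr7. They were taken by symbol from the 17144 gene symbols of the deposited tables, where each has 1 transcript entry. The tables hold RPKM values, which are read numbers scaled to transcript length and library depth, for pieces of tubule that were dissected by hand after collagenase treatment of kidneys from male Sprague-Dawley rats. The series has 125 samples. Of these, 5 are glomeruli, 8 are cortical collecting ducts from a water-load experiment, 7 are whole kidneys sequenced at polyadenylation sites that were not analysed here, and the others cover 14 tubule segments.

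Rats of the segment libraries were adult animals of 200 to 250 g on normal chow. The proximal tubule was sampled as S1, S2 and S3, with 7 libraries each. Among thin limbs, SDL (n = 10) is the short-loop descending limb, LDLOM (n = 9) and LDLIM (n = 4) are outer and inner medullary parts of the long-loop descending limb, and tAL (n = 7) is the ascending one. Thick limbs came from the medulla (mTAL, n = 7) and cortex (cTAL, n = 7). Further along, DCT libraries (n = 8) came from distal convoluted tubules and CNT libraries (n = 6) from connecting tubules. Collecting ducts were taken from cortex (CCD, n = 11), from outer medulla (OMCD, n = 7) and from inner medulla (IMCD, n = 8). In the water-load experiment all 8 rats were 5 weeks old and carried minipumps under the skin that released DDAVP, a vasopressin analogue that drives water retention, at 5 ng/hr. The 4 controls (D2_C) took 25 mL of water per day in gelled food, and the 4 water-loaded rats (D2_WL) took 50 mL per day for 4 days. Since the controls also received DDAVP, the comparison is of water intake under a fixed dose of DDAVP, the setting of vasopressin escape. Each water-load library is labelled as 1 rat, whereas the segment labels only number the replicates, so p-values across segments measure the spread between libraries, part of which may be technical.

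Cholesterol is built from acetyl-CoA in a chain of reactions in the cytosol and endoplasmic reticulum. HMG-CoA synthase, encoded by Hmgcs1, acts near the entry of the chain. Idi1 (isopentenyl diphosphate isomerase) and Fdps (farnesyl diphosphate synthase) make farnesyl diphosphate, the branch point towards isoprenoids. Fdft1 (squalene synthase), Sqle (squalene epoxidase) and Lss (lanosterol synthase) commit the chain to sterols, and Dhcr7 (7-dehydrocholesterol reductase) catalyses a last step. Transcription of the chain is known to be driven mainly by the factor SREBP-2, the product of Srebf2, which is released from the endoplasmic reticulum when sterols are low, with NF-Y and Sp1 as partners at many of its target promoters. Renal tubule cells both make cholesterol and take it up.

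The RefSeq promoter table for the rat (build GRCr8, 250 bases before to 50 after the annotated start) holds 5 of the 7 genes. The promoters of 3 were picked for printing after the values below were seen. Fdps and Dhcr7 were higher without overlap after water load, as were 2.18% of all genes tested, but neither passed the test across all genes. Hmgcs1 had a negative log2 difference there that was smaller than its standard error (-0.24, SE 0.41). Dhcr7 and Hmgcs1 correlated at -0.66 over the 14 segment means, but at 0.31 within segments. The 3 promoters lie at chr2:176804767-176805066 on the minus strand (Fdps), chr2:53382054-53382353 on the plus strand (Hmgcs1) and chr1:208444184-208444483 on the plus strand (Dhcr7). Capitals mark CCAAT, the core of NF-Y sites, and GGGCGG, the core of Sp1 sites, each on either strand.
Fdps: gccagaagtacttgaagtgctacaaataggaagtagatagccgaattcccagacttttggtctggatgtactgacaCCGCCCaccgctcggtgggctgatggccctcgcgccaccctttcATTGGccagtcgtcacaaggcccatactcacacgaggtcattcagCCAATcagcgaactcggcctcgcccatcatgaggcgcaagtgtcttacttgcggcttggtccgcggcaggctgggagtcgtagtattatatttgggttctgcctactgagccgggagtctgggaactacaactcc
Hmgcs1: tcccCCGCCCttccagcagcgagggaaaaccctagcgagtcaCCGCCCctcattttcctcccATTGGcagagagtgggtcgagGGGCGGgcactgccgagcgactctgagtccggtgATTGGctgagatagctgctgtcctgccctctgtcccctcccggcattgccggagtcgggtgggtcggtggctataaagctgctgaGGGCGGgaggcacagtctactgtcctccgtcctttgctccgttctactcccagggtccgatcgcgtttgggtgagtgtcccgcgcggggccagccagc
Dhcr7: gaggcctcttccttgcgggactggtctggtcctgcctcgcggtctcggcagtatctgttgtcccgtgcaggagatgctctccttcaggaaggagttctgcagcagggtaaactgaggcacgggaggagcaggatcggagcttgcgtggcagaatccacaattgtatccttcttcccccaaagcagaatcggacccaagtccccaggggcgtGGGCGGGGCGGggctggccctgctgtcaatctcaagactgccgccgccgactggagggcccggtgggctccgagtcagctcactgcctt
Fdps held 2 CCAAT boxes and 1 GC box, Hmgcs1 held 2 and 4, and Dhcr7 held 0 and 2, the last 2 overlapping each other. Of the 5 promoters, 4 held CCAAT, against 37.5% of the 33469 promoters in the table, and 4 held GGGCGG, against 33.1%. The letters TCACNCCAC, a core of the sterol regulatory element, occurred in 0 of the 5 and in 1.12% of all promoters, on either strand. These matches describe letters in a window of 300 bases and are not evidence of binding.

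Libraries of the tubules differed widely in complexity, with 1438 to 8574 genes at 1 RPKM or more. In 14 of them the number was under 2500, whereas the water-load libraries held 7661 to 8769. Median sums of tubule marker genes followed the labels. The summed RPKM of 6 proximal markers had a median of 1011 in proximal libraries and of 3.07 to 8.46 in the other regions, and the sum of 5 principal cell markers had a median of 7075 in the collecting system against 12.3 to 37.9 elsewhere. In 3 libraries of other regions, SDL replicate 1, LDLOM replicate 1 and OMCD replicate 7, the proximal sum (287 to 2329) was above the lowest proximal library (142), so results across segments are also given without them. Other markers were high in some libraries too. Among thin limb libraries, sums reached 784.5 RPKM for thick limb markers, 551 for intercalated cell markers and 7798 for endothelial markers. Thick limb markers reached 450.7 in an S3 library. The part of these markers in the values of the enzymes was not tested.

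In cortical collecting ducts under DDAVP, none of the 7 enzymes passed the test across all genes. Mean levels in water-loaded rats were 0.773 (Hmgcs1) to 2.8 (Lss, too low for testing) times those of controls. Between them lay Fdft1 at 1.22, Idi1 at 1.74, Dhcr7 at 1.81, Fdps at 1.94 and Sqle at 2.29. Fdps, at the isoprenoid branch point, stood at 12.6, 23.3, 27.1 and 26.7 RPKM in the control rats and at 30.9, 61.0, 33.1 and 48.6 in the water-loaded rats. Dhcr7, at the end of the chain, stood at 3.11, 11.5, 11.4 and 8.91 in controls and at 12.9, 19.0, 12.96 and 18.2 after water load. For both genes every water-loaded rat lay above every control. The means were 22.4 ± 6.72 against 43.4 ± 14.2 RPKM for Fdps and 8.72 ± 3.92 against 15.7 ± 3.28 for Dhcr7 (SD, n = 4 in each group).

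Sqle, which puts oxygen on squalene, stood at 20.4, 6.89, 8.69 and 6.42 RPKM in controls and at 35.2, 23.0, 14.8 and 24.0 after water load. Control rat 1 lay above water-loaded rat 3, so the groups overlapped in that value alone. Idi1 stood at 5.87, 0.373, 2.56 and 5.32 in controls and at 5.78, 3.30, 6.80 and 8.68 after water load, with overlapping groups. Fdft1 overlapped as well, at 16.7, 26.3, 12.9 and 15.8 against 26.3, 17.8, 17.9 and 25.5.

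Hmgcs1, near the entry of the chain, was the exception in sign, at 21.01, 18.2, 11.3 and 6.71 RPKM in controls and at 12.97, 11.2, 11.7 and 8.36 after water load. The water-loaded rats lay within the range of the controls. The log2 difference was -0.66 between rats numbered 1 and 2 and 0.17 between rats numbered 3 and 4, so its sign was not shared. Lss was low in all 8 rats, at 0.124, 0.932, 0.284 and 0.928 in controls and at 3.58, 0.177, 1.12 and 1.48 after water load, and did not reach the level required for testing (1 RPKM in 4 libraries). Summed over the 7 enzymes, RPKM ranged from 70.7 to 87.5 in controls and from 98.5 to 135 after water load, while the sum over 13 other enzymes of the chain overlapped, at 137 to 276 and 247 to 371. The sum of the 7 adds up the values above and weighs enzymes with high RPKM most. As the 7 were chosen with earlier results of these data known, it is not separate evidence.

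**Figure D1:**
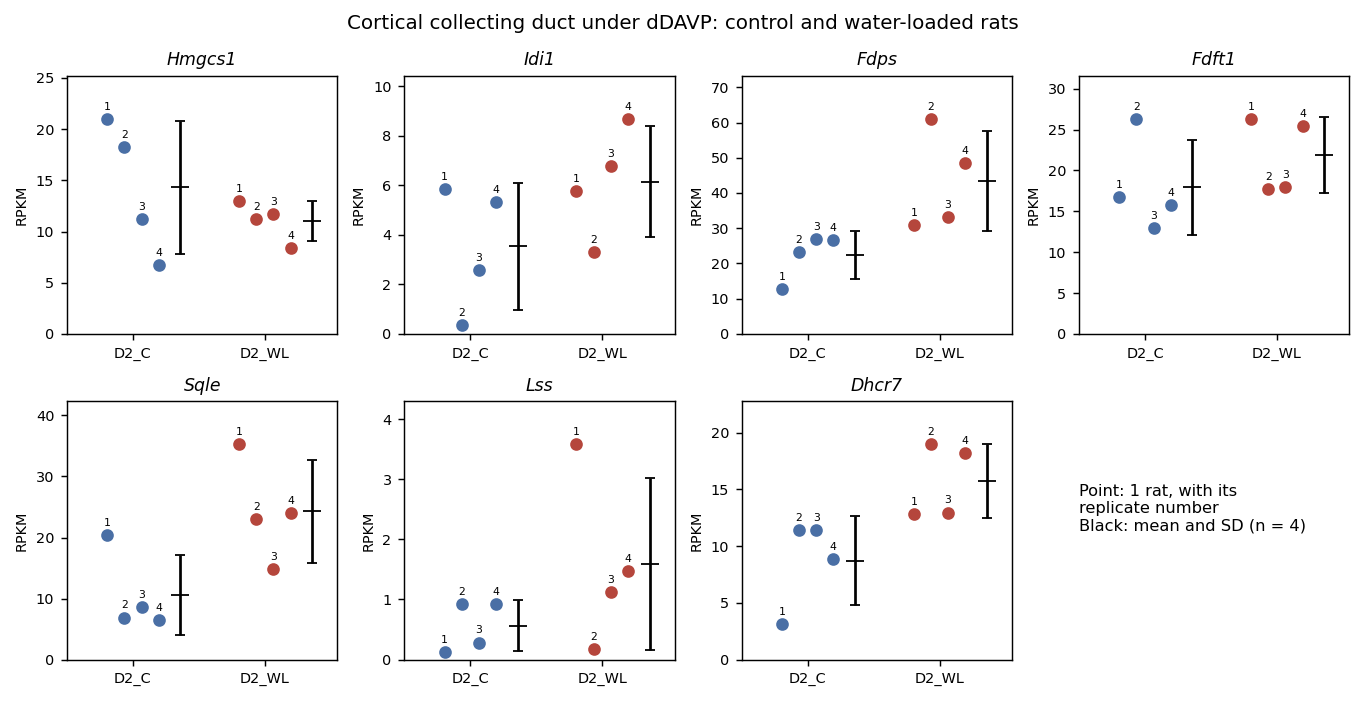
RPKM of each enzyme in the cortical collecting duct of control (D2_C) and water-loaded (D2_WL) rats under DDAVP; points are single rats with their replicate numbers, black marks the mean and SD (n = 4), and each panel has its own axis starting at 0. The 4 water-loaded rats lie above all controls for Fdps (30.9 or more against 27.1 or less) and Dhcr7 (12.9 or more against 11.5 or less), while Hmgcs1 lies within the control range.

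Tested with limma on log2(RPKM + 1) over 8492 genes, 0 of the 6 enzymes tested were called at an adjusted p under 0.05, where 0.153% of all genes were called (8 higher and 5 lower). With rats paired by number 29 genes were called, and 0 of the 6 enzymes. The log2 difference was 1.21 (SE 0.42) for Sqle, with a limma p of 0.0125 before adjustment and 0.52 after Benjamini-Hochberg adjustment. For Fdps it was 0.93 (SE 0.35), with limma p-values of 0.0188 and 0.58. Dhcr7 followed with 0.89 (SE 0.43, limma adjusted p 0.69) and Idi1 with 0.84 (SE 0.55, limma adjusted p 0.80). Fdft1 gave 0.30 (SE 0.34) and Hmgcs1 -0.24 (SE 0.41). Unadjusted p-values under 0.05 thus occurred in 2 of 6 enzymes and in 7.44% of all genes.

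Taken gene by gene, an exact two-sided permutation test of 4 against 4 rats gave p = 0.0286 for Fdps and for Dhcr7, the smallest value this design allows. The same exact test gave p = 0.0571 for Sqle, 0.171 for Lss, 0.2 for Idi1, 0.229 for Fdft1 and 0.571 for Hmgcs1. That test leaves aside the pairing of rats by number, which the labels do not state. By pairs, Sqle, Fdps and Dhcr7 were higher after water load in 4 of 4 pairs, which 9.16% of all genes tested were, and the exact two-sided paired test gave p = 0.125 for each, the smallest value that 4 pairs allow. Idi1 and Fdft1 were higher in 3 of 4 pairs and Hmgcs1 in 2. Groups without overlap and higher after water load were found for 2 of the 6 tested enzymes and for 2.18% of all genes tested (4.27% in either direction). Read numbers recovered from the RPKM steps were 2287 to 9788 per library for Fdps, 1746 to 10376 for Sqle and 1210 to 6543 for Dhcr7, and the lowest number for any enzyme was 48, for Lss. These are the smallest whole numbers that give the deposited values, each within 0.0001 of a read. They speak to counting error only, since the cDNA was amplified and reads are not separate molecules. They rest on relative depths, spanning 1.88-fold, that were read in each library from the most frequent ratio to control rat 1, shared by 22 to 58 of 3863 to 3991 low genes.

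The other enzymes of the chain had a like balance of signs. The list of 13 further enzymes was also chosen with earlier results of these data known. Of these, 12 were tested, 11 had a positive log2 difference and 0 were called. Their median was 0.79, beside 0.87 for the 6 tested of the 7 enzymes and 0.02 for all genes. Together 16 of 18 tested enzymes had a positive difference, beside 51.7% of all genes tested. Higher without overlap between the groups were 4 of the 18, beside 2.18% of all genes tested. All values come from the same rats, so the enzymes are not separate observations. Besides Fdps and Dhcr7 the 4 included Msmo1 (methylsterol monooxygenase) and Mvk (mevalonate kinase), which are named here after their values were seen. Msmo1 had means of 24.6 ± 15.5 RPKM in controls and 58.2 ± 11.6 after water load (SD, n = 4), with a log2 difference of 1.44 (SE 0.44, limma adjusted p 0.37). Mvk had 12.1 ± 6.30 and 24.2 ± 1.91 (SD, n = 4), with a log2 difference of 1.07 (SE 0.39, limma adjusted p 0.55). Cyp51 and Hmgcs1 were the 2 tested enzymes with a negative sign.

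**Figure D2:**
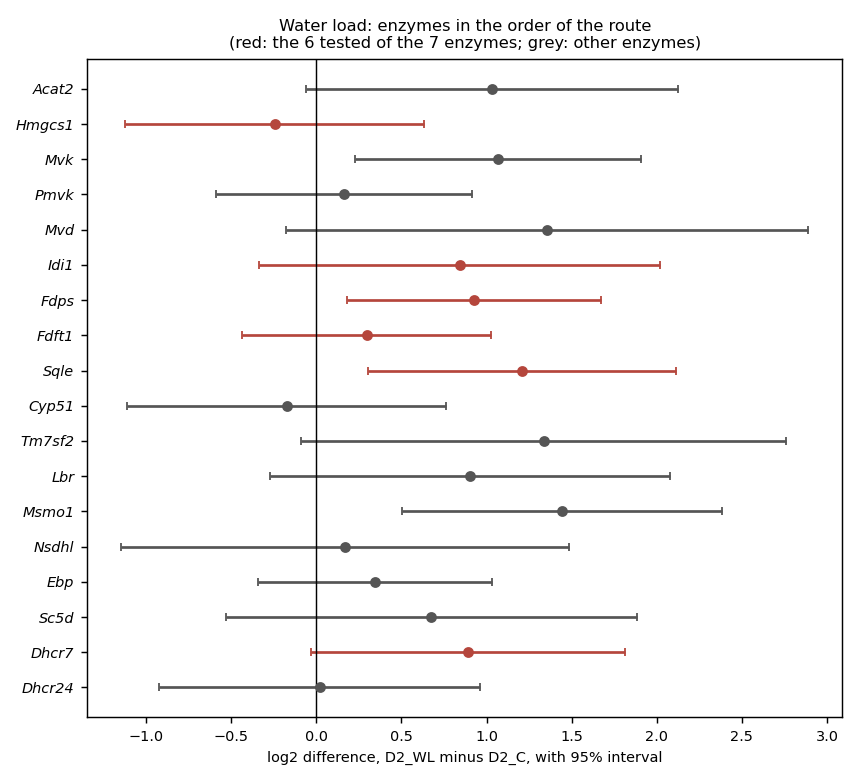
Log2 difference of RPKM + 1, water-loaded minus control rats, with its unadjusted 95% interval, for the 18 tested enzymes in their order along the chain; red marks the 6 tested of the 7 enzymes described here and grey the others. Points lie right of 0 for 16 enzymes, with Hmgcs1 and Cyp51 on the left, and the intervals of Mvk, Fdps, Sqle and Msmo1 do not reach 0.

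Over all genes tested, 51.7% had a positive difference. Genes that control or adjoin the chain are given beside it, and the difference between the lists was not tested. In the list of the SREBP system, which holds the transcription factors and the proteins that retain and cleave them, 3 of 6 tested genes had a positive difference and the median was 0.05. Fatty acid synthesis, the other programme of these factors, had 4 of 7 positive with a median of 0.04. The isoprenoid branch had 2 of 6 positive with a median of -0.09, and cholesterol uptake, transfer and efflux had 5 of 13 with a median of -0.15. In each of these 4 lists 0 genes were called by limma, with 0, 1, 0 and 3 at an unadjusted p under 0.05. Scarb1 of the uptake list, a lipoprotein receptor named after its values were seen, was higher without overlap between the groups.

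Other measures also moved with the groups. Summed principal cell markers ranged from 12860 to 20530 RPKM in controls and from 6318 to 11980 after water load, Aqp2 and Aqp3 being lower without overlap. The sum of 5 intercalated cell markers ranged from 2094 to 2741 and from 2658 to 3279. Proximal markers summed to 9.76 to 293 in controls and 6.18 to 12.6 after water load, thick limb markers to 35.1 to 361 and 20.8 to 89.0. Cell cycle genes summed to 153 to 497 in controls and 296 to 827 after water load, with 5 of 5 tested genes positive and a median log2 difference of 1.12. Immediate early and heat shock genes summed to 637 to 1243 in controls and 524 to 803 after water load, with 0 of 6 positive, a median of -0.48 and Jun lower without overlap. The podocyte marker Nphs1 was at 0 in all 8 libraries, and ranges of endothelial, macrophage and fibroblast markers overlapped between the groups. The part of these shifts in the enzymes' values was not tested. In bulk samples a change in the number of cells of a type and a change in RNA per cell cannot be told apart.

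Across the nephron, the 7 enzymes were found unevenly from library to library. In the proximal tubule 3 of them, Dhcr7, Hmgcs1 and Sqle, were called, beside 22.3% of all genes (6.87% higher and 15.4% lower). Fdps reached 1 RPKM in 77 tubule libraries (73.3%) and Fdft1 in 73 (69.5%). Sqle did so in 60, Hmgcs1 in 56, Dhcr7 in 54 and Idi1 in 53, close to an even split. Lss did so in 13 (12.4%) and was at 0 in 67. The mean of the 14 segment means was 36.2 RPKM for Fdps, 18.3 for Sqle, 18.1 for Fdft1 and for Hmgcs1, 11.5 for Dhcr7, 8.12 for Idi1 and 0.424 for Lss.

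The number of enzymes found in a library went with the number of genes found. Libraries with under 2500 genes had a median of 1 of the 7 enzymes at 1 RPKM (range 0 to 3, 14 libraries), and those with 6000 or more had a median of 6 (range 4 to 7, 33 libraries). Across all tubule libraries, log2(RPKM + 1) of an enzyme correlated with the number of genes found at 0.26 (Idi1) to 0.61 (Fdft1), where both measures come from the same library. A low value in a poor library therefore cannot be told apart from low expression. In 5 glomeruli, which held 8818 to 9483 genes, the means were 88.8 ± 23.4 RPKM for Fdps, 34.2 ± 15.2 for Fdft1, 31.5 ± 13.2 for Hmgcs1, 29.8 ± 12.1 for Sqle, 8.59 ± 5.08 for Dhcr7, 2.04 ± 1.72 for Lss and 1.88 ± 1.27 for Idi1 (SD, n = 5). The glomeruli are labelled as adult, but their protocol text also covers the minipump experiment, so it is not clear whether those rats received DDAVP. Glomeruli entered no test.

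**Figure D3:**
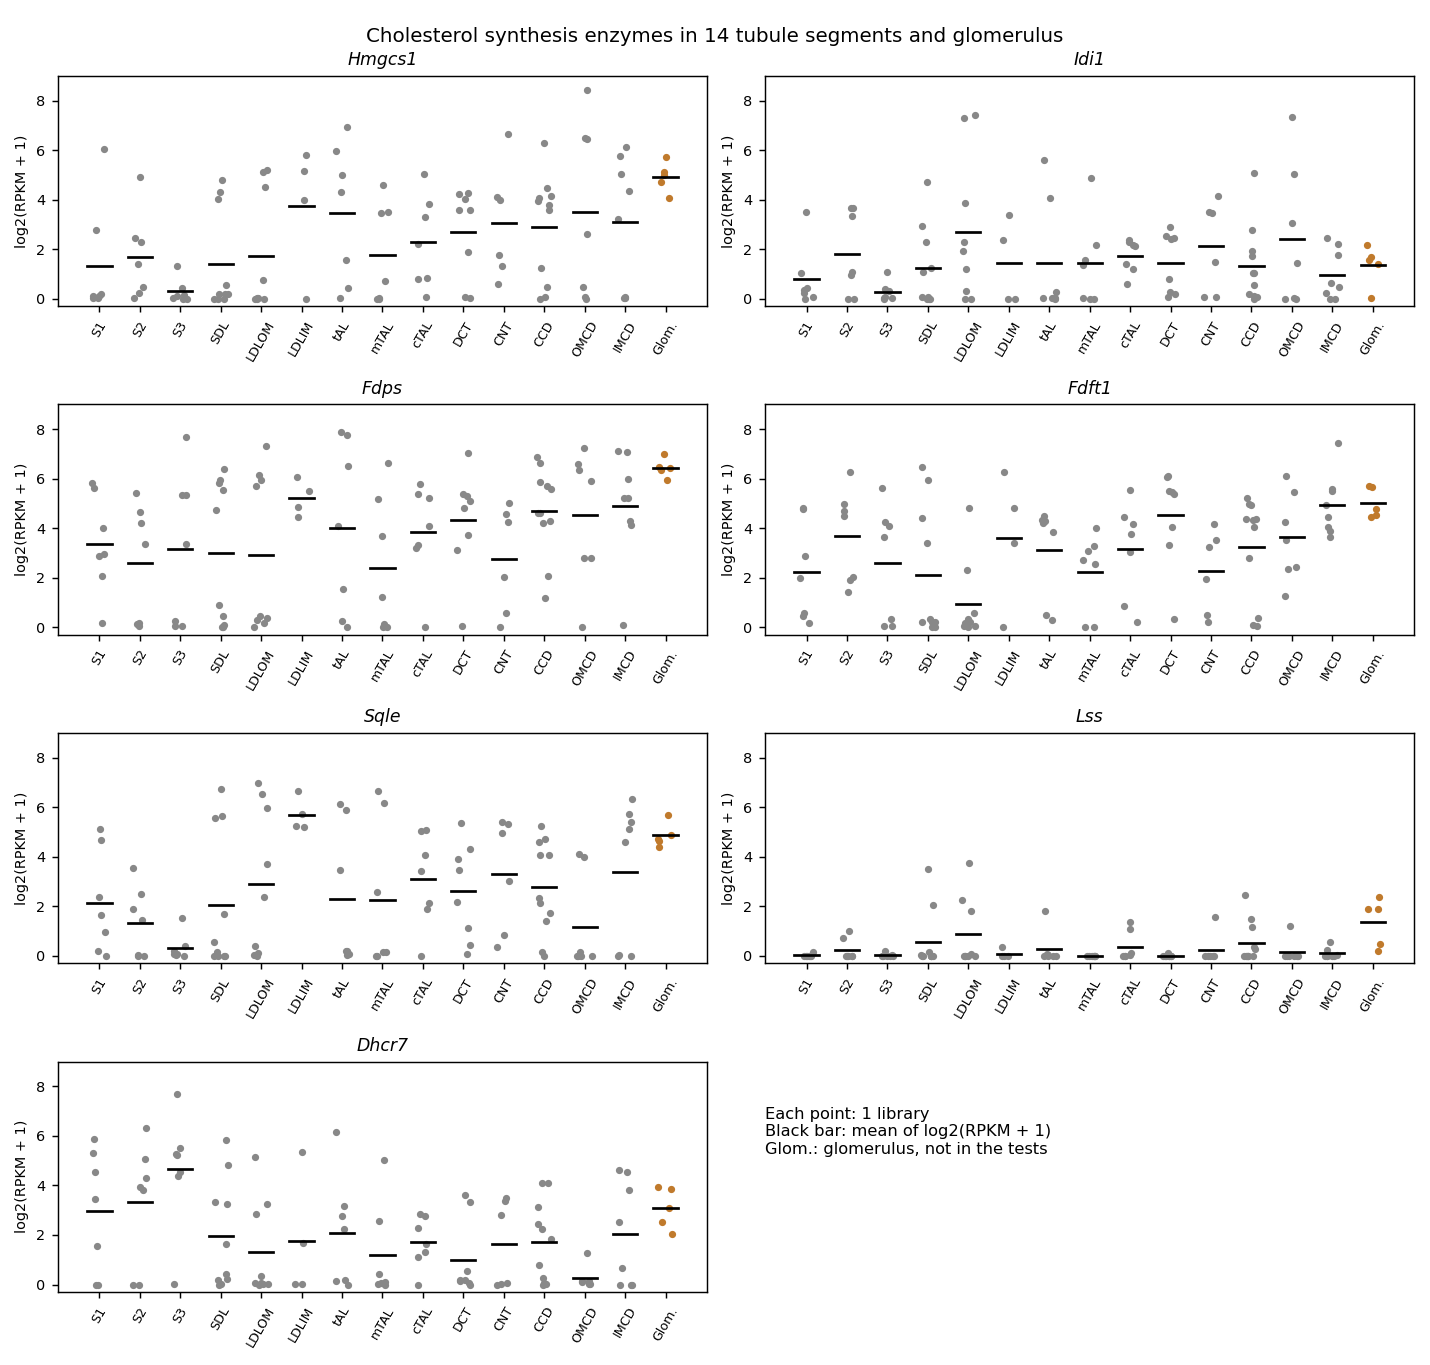
Log2(RPKM + 1) of each enzyme in every tubule library (grey points) and glomerulus library (orange points), by segment; black bars are means of the log2 values. Hmgcs1 in OMCD runs from 0 to 8.4, Lss is low throughout, and Dhcr7 is above 4 in 6 of 7 S3 libraries.

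Dhcr7 was highest in the proximal tubule. Its S3 libraries held 37.5, 36.8, 22.1, 44.7, 19.9, 206 and 0.0297 RPKM, so 6 of 7 were at or above 19.9 and replicate 7 was near 0. S2 ranged from 0 through a median of 14.5 to 78.3, and S1 from 0 through 10.1 to 57.8. The lowest mean was that of OMCD, where the 7 libraries lay between 0.00177 and 1.41 with a median of 0.088. The S3 mean of 52.5 ± 69.4 (SD, n = 7) exceeded the next, that of S2 at 22.4 ± 27.0 (SD, n = 7), by less than the spread.

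By the mean, Hmgcs1 and Sqle were lowest in S3, where Dhcr7 was highest. By the median, Hmgcs1 was lower still in LDLOM (0.034) and Sqle in OMCD (0). Sqle in S3 ran from 0.0129 through a median of 0.0617 to 1.91 RPKM, and Hmgcs1 in S3 from 0 through 0.083 to 1.53. In LDLIM the 4 libraries held 35.4, 37.1, 52.5 and 100.1 RPKM of Sqle. S3 and LDLIM, the segments with the lowest and the highest mean of Sqle, did not overlap. They were set side by side as the extremes, and the share of all genes that separate them was not counted. Hmgcs1 had its highest mean in OMCD, at 75.3 ± 126 (SD, n = 7), but its 7 libraries ran from 0 through a median of 5.20 to 347, and the mean without the highest library, OMCD replicate 1, was 30.1.

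Fdps had its highest mean in tAL, at 80.3 ± 105.1 RPKM (SD, n = 7, median 16.0), followed by OMCD at 56.6 ± 56.5 (SD, n = 7) and IMCD at 55.0 ± 52.6 (SD, n = 8). In CCD all 11 libraries were at 1.30 or above. Fdft1 was found at 11.4 to 171 in all 8 IMCD libraries, with a median of 25.4, and had its lowest mean in LDLOM, at 3.64 ± 9.08 (SD, n = 9), where the median was 0.155. Without LDLOM replicate 7, at 27.6, that mean was 0.646.

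Idi1 had a mean of 38.8 ± 71.1 RPKM in LDLOM (SD, n = 9) but a median of 2.80, and 29.0 ± 59.8 in OMCD (SD, n = 7) with a median of 1.70. Its highest OMCD library, replicate 4 at 162, took the mean from 6.84 to 29.0. Lss had no segment mean above 2.08. When the 14 segments were put in order of level for each enzyme, 0 of the 13 steps between neighbours exceeded the larger SD of the 2 segments.

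**Figure D4:**
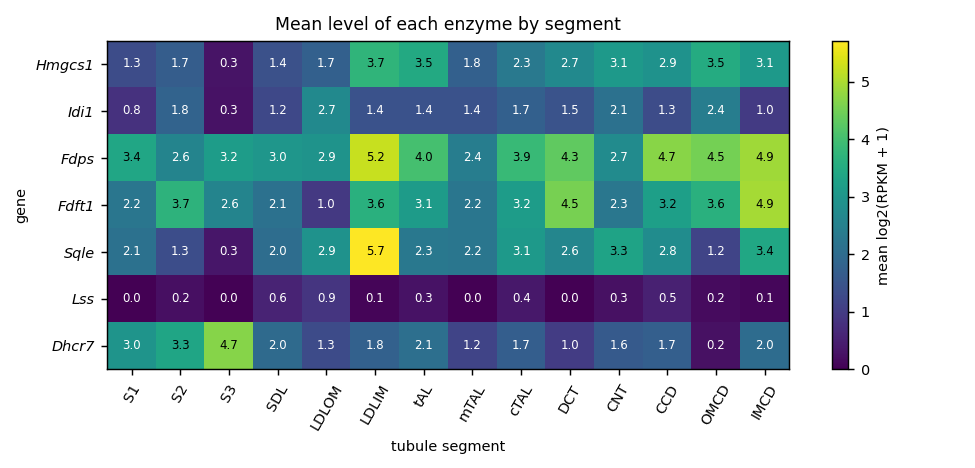
Mean log2(RPKM + 1) of each enzyme (rows) in each tubule segment (columns), written in each cell and coded by colour. Dhcr7 is highest in S3 (4.7) and lowest in OMCD (0.2), while Sqle runs from 0.3 in S3 to 5.7 in LDLIM.

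All 14 segments were compared in 1 limma fit of all tubule libraries and 11078 genes. An F-test across segments called 2 of the 7 enzymes, Dhcr7 (limma adjusted p 0.029) and Fdft1 (0.031), where 41.5% of all genes were called. Without the 3 libraries that held proximal markers the limma adjusted p was 0.043 for Dhcr7 and 0.057 for Fdft1. Sqle (limma adjusted p 0.10), Hmgcs1 (0.22), Fdps (0.50) and Idi1 (0.54) did not pass. Under the same F-test 2 of 13 other enzymes passed, Cyp51 and Pmvk, as did 3 of 6 genes of the isoprenoid branch, 2 of 7 of the SREBP system, 5 of 10 of fatty acid synthesis and 7 of 14 of uptake, transfer and efflux.

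Each segment was then set against the mean of the other 13, with a call at an adjusted p under 0.05 and a log2 difference of at least 1. Of 98 pairs of enzyme and segment 3 were called (3.06%), beside 5.19% over all genes and segments. Dhcr7 was higher in S3 by 2.90 (SE 0.75, limma adjusted p 0.0059), where 3.66% of genes were called higher. It kept that call in all 13 alternative settings tried, with log2 differences from 2.68 to 3.97. Sqle was higher in LDLIM by 3.43 (SE 1.13, limma adjusted p 0.046), where 5.82% of genes were called higher, and lost the call in 10 of 13 settings, including each in which 1 of the 4 libraries was left out. Fdft1 was higher in IMCD by 2.06 (SE 0.73, limma adjusted p 0.045), where 10.6% of genes were called higher, and lost the call in 6 of 13.

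By region, the proximal tubule was the one where enzymes were called, and in both directions. Relative to the other 11 segments Dhcr7 was higher by 2.15 on the log2 scale (SE 0.47, limma adjusted p 0.00018). Hmgcs1 was lower on the same scale, at -1.60 (SE 0.54, limma adjusted p 0.019), as was Sqle, at -1.60 (SE 0.54, limma adjusted p 0.020). These 3 of 7 calls stand beside 22.3% of all genes called, 6.87% higher and 15.4% lower, with a median over all genes of -0.36. With quantile normalization the all-gene calls were 1008 higher and 939 lower in place of 761 and 1711, and the median was -0.09. All 3 kept their calls without the 3 libraries that held proximal markers (2.11, -1.68 and -1.67). With quantile normalization Dhcr7 at 2.33 and Sqle at -1.30 kept theirs, whereas Hmgcs1, at -1.05, had a limma adjusted p of 0.072.

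Fdps (-0.84, SE 0.60), Idi1 (-0.70, SE 0.43), Fdft1 (-0.23, SE 0.49) and Lss (-0.20, SE 0.17) did not pass in the proximal tubule. Dissection by enzyme lasted longest for the inner medulla and shortest for cortex, and 6 of 6 immediate early and heat shock genes were called lower in the proximal tubule, with a median log2 difference of -3.61. The same 6 genes were called higher in the thin limbs (6 of 6, median 2.85) and the collecting system (3 of 6, median 0.98), and lower in the thick limb and DCT (4 of 6, median -1.46). Their part in the values of the enzymes and of the other pathway genes was not tested. The sum of 6 macrophage markers had a median of 33.9 RPKM in proximal libraries and of 0.927 to 38.3 in the other regions.

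**Figure D5:**
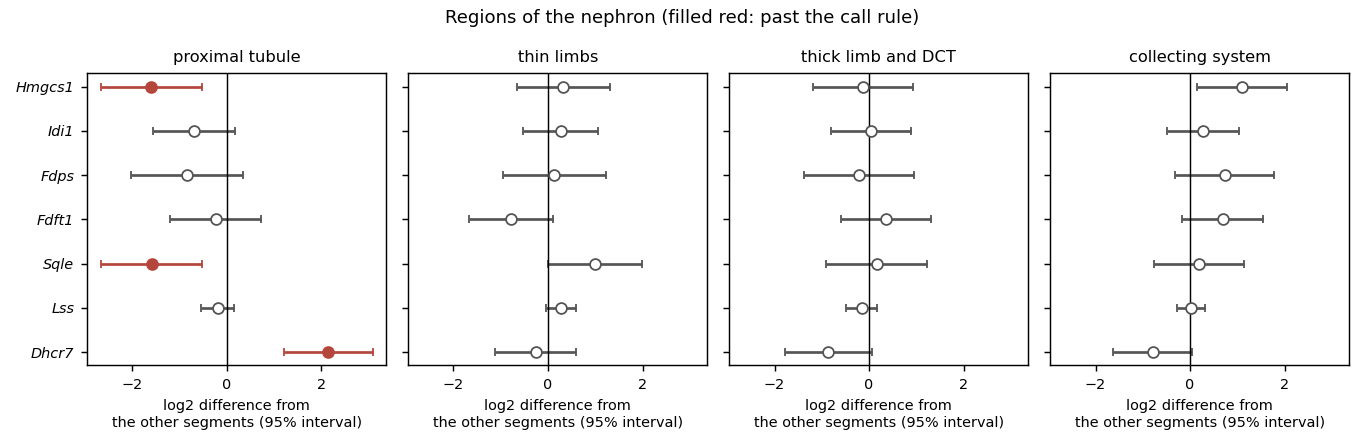
Log2 difference of each enzyme between a region and the other segments, with its 95% interval, from the fit of all tubule libraries; filled red points passed the call rule. In the proximal tubule Dhcr7 lies at 2.15 and Hmgcs1 and Sqle at -1.60, and no point is filled in the other 3 regions.

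In the thin limbs 0 of 7 enzymes were called, where 16.2% of all genes were (8.13% higher and 8.02% lower). Sqle was at 0.99 (SE 0.50, limma adjusted p 0.15), and it passed at 1.15 with quantile normalization and at 1.23 with the number of genes found as a covariate. In the thick limb and DCT 0 of 7 were called, where 7.9% of all genes were (3.84% higher and 4.06% lower), with values from -0.86 (Dhcr7) to 0.36 (Fdft1). In the collecting system 0 of 7 were called, where 12.5% of all genes were (9.42% higher and 3.1% lower), or 1044 higher and 343 lower. The split there was 536 and 489 with quantile normalization. Hmgcs1 was at 1.10 (SE 0.48, limma adjusted p 0.099) and Dhcr7 at -0.80 (SE 0.42, limma adjusted p 0.19). Dhcr7 passed as lower in the collecting system, at -1.13 with quantile normalization and at -1.14 with the covariate.

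Of the 13 other enzymes of the chain, 2 were called lower in the proximal tubule and 0 higher. They were Cyp51 (lanosterol demethylase), at -1.27 (SE 0.45, limma adjusted p 0.026), and Pmvk (phosphomevalonate kinase), at -1.49 (SE 0.55, limma adjusted p 0.032). Cyp51 lost its call with quantile normalization and with the covariate, and Pmvk with the covariate. Pmvk was called higher in the collecting system, at 1.91 (SE 0.49, limma adjusted p 0.0020), as 1 of 13. In the 8 IMCD libraries it ran from 36.8 through a median of 175 to 324 RPKM, and in mTAL from 0.0127 through 0.0862 to 11.6, without overlap. The mTAL libraries were poorer, with a median of 2870 genes at 1 RPKM or more against 6321.5 in IMCD. The share of all genes that separate these segments was not counted. Ebp (a sterol isomerase) was called higher in the thick limb and DCT, at 1.43 (SE 0.50, limma adjusted p 0.048), and lost the call in 7 of 13 settings. In the thin limbs 0 of 13 were called.

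The transcription factor gene Srebf2 was called lower in the proximal tubule, at -1.71 (SE 0.41, limma adjusted p 0.00059), and higher in the thin limbs, at 1.39 (SE 0.38, limma adjusted p 0.0032), where the 6 immediate early and heat shock genes were also called higher. With quantile normalization the proximal value was -0.92 and fell short of the limit on size. Mbtps1, a protease that releases the factor, was called lower in the proximal tubule at -1.28 but lost the call in 7 of 13 settings. These were 2 of 7 genes of the SREBP system called lower there, and 2 of 7, Srebf2 and Insig1 (1.44, SE 0.46, limma adjusted p 0.014), were called higher in the thin limbs. Insig1 retains the factor in the endoplasmic reticulum. In the thick limb and DCT and in the collecting system 0 of 7 were called.

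Among genes that make acetyl-CoA and fatty acids, Acss2, an acetyl-CoA synthetase, was called higher in the proximal tubule by 3.53 (SE 0.48, limma adjusted p 1.3e-09). Its 7 S3 libraries ran from 85.2 through a median of 560 to 741 RPKM, above all CCD libraries (0.227 to 31.3). How many of all genes separate S3 from CCD was not counted. Scd, a desaturase, was called lower there (-1.78) and higher in the collecting system (2.26), where Fads1, another desaturase, was also called higher (2.21) and Acss2 lower (-1.36). Of the 10 tested genes of the list 1 was higher and 1 lower in the proximal tubule, 0 and 2 in the thin limbs (Scd and Fads1), 0 and 1 in the thick limb and DCT (Me1, malic enzyme, at -2.41), and 2 and 1 in the collecting system.

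The list of uptake, transfer and efflux was longer, with 14 tested genes. In the proximal tubule 2 of 14 were higher and 4 lower, beside 1 and 2 of the 7 enzymes, and 6.87% and 15.4% of all genes. The higher ones were Lrp2 (megalin, an endocytic receptor that is also one of the proximal markers), at 3.19, and Nr1h3 (an oxysterol receptor), at 2.09. Those with the smallest p among the lower ones were Abcg1 (a sterol exporter), at -2.16, and Soat1 (which esterifies cholesterol), at -2.17. Abcg1 at 1.40, Mylip (a ligase that degrades lipoprotein receptors) at 2.00 and Npc1 (a lysosomal cholesterol transporter) at 1.23 were the 3 called higher in the thin limbs, with 0 lower. Abcg1 and Npc1 lost that call with quantile normalization. In the collecting system Npc2, Cyp27a1 and Soat1 were called higher and Lrp2 lower, and in the thick limb and DCT Lrp2 alone was called, as lower. Cyp27a1 and Soat1 lost the call in the collecting system with quantile normalization and with the covariate. In the isoprenoid branch 1 of 6 was called in the proximal tubule (Pggt1b, at -1.03) and 2 in the thin limbs (Dhdds at -1.80 and Pggt1b at 1.30). Pggt1b lost its call in 5 of 13 settings in the proximal tubule and in 2 of 13 in the thin limbs. Of all 33 such calls of other pathway genes in the 4 regions, 23 held with quantile normalization and 26 with the covariate, and 0 changed sign in any of the 13 settings.

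Segment means of the 7 enzymes had correlations of both signs along the nephron. The F-test across segments called 2 of the 7, and means this variable cannot decide whether the enzymes follow each other. Over the 14 segment means of log2(RPKM + 1), the 21 pairs of enzymes had Pearson correlations from -0.68 (Idi1 and Dhcr7) to 0.69 (Hmgcs1 and Fdps), with a median of -0.05, while the median over pairs of all tested genes was 0.18. Hmgcs1, Fdps and Fdft1 were positively correlated pair by pair (0.69, 0.51 and 0.68). Dhcr7 had a negative correlation with each of the other 6, from -0.09 with Fdft1 to -0.68. Within segments, over the residuals of all tubule libraries, all 21 pairs were positive, from 0.05 to 0.40 with a median of 0.25, beside a median of 0.13 for all pairs of genes. Values of 1 library share its depth and complexity, so these correlations are a description.

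The genes with segment means most like the mean of the 7 enzymes were Pmvk (r = 0.94), Kdsr (0.93), Prpf18 (0.92), Mms19l (0.91) and Napg (0.91), over 14 segments. Of these Pmvk is the only one that belongs to the chain. Over the residuals of the tubule libraries they were L1cam (0.71), Pgm3 (0.70), Polr3e (0.69), Paics (0.68) and Copa (0.67). The second deposited segment table, made without polyadenylation-site data, gave values within 1% of the first for Hmgcs1, Fdps and Idi1 in all libraries at 1 RPKM or more, and ratios to the first of 0.98 to 1.0 for Sqle. For Lss the ratio was 1.60 in all 13 such libraries. For Dhcr7 it had a median of 1.37 and a lowest value of 0.937, with 51 of 54 libraries within 1% of the median. For Fdft1 the median was 1.11 and the range 0.007 to 1.12, with 17 of 73 libraries within 1% of the median. Levels of these last 3 thus depend on the table, while Dhcr7 kept its calls in S3 and the proximal tubule with it.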

How the data were processed

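RNA-seq of the microdissected segments, glomeruli and cortical collecting ducts followed a single-cell protocol with paired reads, per the labels' protocols. RPKM values per RefSeq transcript were used as deposited by the authors. The submitters' processing notes name the build rn5 and, with no order or settings, HOMER, SAMtools, STAR 2.3.0-r192 and Trimmomatic 0.32. The names of the deposited segment tables mark the main one as made with polyadenylation-site data and the alternative as made without.

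Values were taken as log2(RPKM + 1). For 503 symbols with several transcripts the one with the highest mean was kept. Testing required 1 RPKM or more in 4 or more libraries. The test was limma's trended moderated one (version 3.58.1, R 4.3.3), two-sided and with Benjamini-Hochberg adjustment over all genes of a comparison. Calls needed an adjusted p under 0.05 and, for a segment or region, a log2 difference of at least 1. The tubule libraries shared 1 fit and the 8 water-load libraries another. Read numbers of the enzymes were recovered from RPKM steps with a tolerance of 0.05 reads. Motifs were searched on both strands of RefSeq promoters (GRCr8). Code was tested on simulated data. Tables and plots were made with matplotlib 3.10.9, pandas 2.3.3, numpy 2.4.6 and Python 3.11.15.

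The 7 enzymes, the gene lists and the tests were chosen with earlier results of these data known. The text names the 7 enzymes, every called gene of the other enzymes, up to 4 called genes with the smallest p per other list in the regional and water-load comparisons, and the 5 genes most like the enzymes by each measure of likeness; other names were chosen after their values were seen. Some genes of the pathway are not reported here. Residuals of water-load libraries with the same number correlated at 0.24, 0.21, 0.23 and 0.31 across genes, all above 0.1. The main water-load fit was unpaired, and pairing of rats by number was run as an alternative. Some libraries of unlike number correlated as well, at 0.17 (D2_C 1 and D2_WL 2), 0.19 (2 and 1), 0.35 (3 and 4) and 0.21 (4 and 3). The labels state no pairs. These values do not tell same-number pairs apart from a split of numbers 1 and 2 against 3 and 4. Alternatives were another pseudocount, no filter, quantile normalization, summed transcripts, the other table, the number of detected genes as a covariate, a replicate block, array weights and leaving out libraries.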

Additional observations from a re-analysis of the deposited data

Results flagged for a closer look

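Of 112 groups of 4 to 10 libraries (an enzyme in a segment, in glomeruli or in a water-load group), 15 held 1 library that stood apart from the rest of its group in log2(RPKM + 1) by Dixon's test. For normally distributed values chance flags about 1 in 20. Many groups here hold values at or near 0, so that rate is no measure of excess. Several came from the same library. S3 replicate 3 had the highest value of 4 enzymes in its segment, with 1.53 RPKM of Hmgcs1, 1.91 of Sqle, 1.1 of Idi1 and 0.153 of Lss, where the next libraries held 0.362, 0.305, 0.301 and 0.0311. OMCD replicate 5 was the highest of its segment for Dhcr7, at 1.41 against 0.102 in the next, and for Lss, at 1.34 against 0.

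Fdps in IMCD replicate 2 was the 1 low value among them, at 0.0701 RPKM where the next lowest of the 8 libraries held 16.6. Fdft1 stood at 27.6 in LDLOM replicate 7, with 4.01 in the next, and Idi1 at 10.4 in S1 replicate 5, with 1.05 in the next. The other values were all of Lss, which was at or near 0 in most libraries. They were 0.102 in S1 replicate 6, 0.271 in LDLIM replicate 3, 2.53 in tAL replicate 5, 0.0742 in DCT replicate 8, 1.96 in CNT replicate 6 and 0.485 in IMCD replicate 6.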

How the results depend on the processing

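Across the alternatives, 0 of the enzymes tested were called in the water-load comparison by limma, and the exact permutation test without pairs alone put 2, Fdps and Dhcr7, under 0.05. The exact paired test (replicate block), chosen after seeing the data, put 0 under 0.05 and cannot go below 0.125. The limma adjusted p ranged from 0.24 to 0.99 for Sqle and from 0.30 to 0.95 for Fdps, and Idi1, Fdps, Sqle, Fdft1 and Dhcr7 kept a positive sign in each setting. Over all genes the water-load count of 13 was less stable: it was 0 with a pseudocount of 0.1, 0 without a filter, 25 with array weights, 29 with the replicate block and 0 to 7 when 1 rat was left out. With the replicate block, which pairs rats by number, no enzyme was called. Libraries numbered 1 and 2 resembled each other across groups, as did those numbered 3 and 4. With that split as a factor, chosen after seeing the data, 48 genes were called. Hmgcs1 was 0.17 within numbers 3 and 4, against -0.24 in all rats.

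Across segments the F-test called 1 enzyme, not 2, without the libraries under 2500 genes, with a pseudocount of 0.1, with quantile normalization and without the 3 libraries of other regions that held proximal markers (an alternative chosen after seeing the data). The pairs of enzyme and segment called numbered 1, not 3, with quantile normalization and without those 3 libraries. In the thin limbs and in the collecting system 1 enzyme was called with quantile normalization and with the covariate. The segment numbers did not pair libraries, with a median residual correlation of 0.0092 over 600 same-number pairs of libraries, and the replicate block kept each call of an enzyme and raised the count of the F-test to 3. The causes of these differences were not tested. Read totals of the segment libraries were not used, so limits from counting there are unknown.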
